A study of Homo sapiens with 6 samples.

Results

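SWI/SNF and Polycomb group genes were followed in A549 cells with and without the MIR21 gene. The 39 genes were chosen by name as subunits of these chromatin complexes, and all 39 were found among the 58174 genes of the table: 24 SWI/SNF subunits and 15 Polycomb subunits, of which 7 belong to Polycomb repressive complex PRC2 and 8 to PRC1. Of these, 38 reached the mean of 0.5 FPKM (fragments scaled by gene length and sequencing depth) required for testing, and DPF3, a subunit of some SWI/SNF forms, did not, with 0 to 11 reads per library.

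PolyA-selected RNA-seq libraries had been made from A549, an established human lung adenocarcinoma cell line, 48 h after seeding in DMEM with 10% FBS. Ctrl was the parental line, and MIR21-KO cells carried a deletion of MIR21 made with Cas9 and a pair of sgRNAs and came from single sorted cells. There were 3 libraries per group. How many clones the MIR21-KO libraries came from is not given in the sources used here, so differences between clones and effects of the deletion cannot be told apart, and p-values measure only the spread between these libraries.

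SWI/SNF (BAF) complexes use the energy of ATP to move or evict nucleosomes, and they open chromatin at enhancers and promoters. PRC2 places methyl groups on lysine 27 of histone H3, a repressive mark, and PRC1 ubiquitylates histone H2A and binds that mark through its CBX subunits. The complexes oppose each other at many developmental genes, and many subunits are encoded by paralogues that replace one another. A549 cells carry an inactivating mutation of SMARCA4, one of the SWI/SNF ATPases.

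The recovered reads numbered 10631667 to 14345209 per library, which gave 49 to 2029 reads per library for the 38 tested genes. MIR21 was listed at 0 in every library, Ctrl included. PolyA selection does not capture mature microRNAs, so the deletion could not be checked on it. Keratins KRT7, KRT8 and KRT18 averaged at least 414 FPKM in both groups, EPCAM was low (1.19 FPKM in Ctrl), and CDH1, the epithelial cadherin, was lower in MIR21-KO at a log2 fold change of -1.48 (limma FDR 0.000175). Of 12 markers of other cell types, CD3E was at 0 and 8 stayed under 0.5 FPKM in every library; their summed level was 7.88 to 8.38 FPKM in Ctrl and 8.53 to 9.65 FPKM in MIR21-KO.

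The sequences that could tie these mRNAs to the deleted microRNA are shown first. The mature miR-21-5p (chr17:59841273-59841294, plus strand) is given with its seed, bases 2 to 8, in capitals, and so is let-7a-5p as a second microRNA (chr11:122146568-122146589, minus strand, 1 of 3 loci), both from RefSeq on GRCh38.p14.
miR-21-5p: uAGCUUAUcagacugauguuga
let-7a-5p: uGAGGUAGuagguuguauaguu

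The longest annotated 3' UTR of each gene (GENCODE 29, GRCh38) was searched for the complement of the seed, ATAAGCT, on the transcript strand. A match followed by A is called an 8mer and one without it a 7mer-m8. Of the 39 genes, 4 held an 8mer for miR-21-5p, which is 10.3% against 2.87% of the 11644 tested protein-coding genes with a 3' UTR. They were SMARCA2, SMARCD1, PBRM1 and BCL7A, whose sites are shown because they are the strongest matches, with the matched bases in capitals. The site of SMARCA2 lies far before the end of that gene, at position 2193624 of chr9. The 3' UTR that holds this site is 5971 bases long, and no coding transcript of the gene exceeds 7061 bases. That form thus has few bases left for coding sequence. Whether the full-length mRNA also holds the site was not tested, and the level of SMARCA2 counts all forms of the gene. The 2 sites of SUZ12 are added because it is the only gene with a match of 7 or more bases that differed between the groups at an FDR under 0.01.
SMARCA2, 8mer, chr9:2043945-2043972, plus strand: ttggagagggagtgggagATAAGCTAaa
SMARCD1, 8mer, chr12:50099407-50099434, plus strand: caggcctgtgggcactctATAAGCTAgt
PBRM1, 8mer, chr3:52547899-52547926, minus strand: tatatacggacacttttaATAAGCTAtt
BCL7A, 8mer, chr12:122059476-122059503, plus strand: acttctctatgtaacgatATAAGCTAtc
SUZ12, 7mer-m8, chr17:31999978-32000005, plus strand: aatagaatatccaatagagATAAGCTga
SUZ12, 7mer-m8, chr17:32000298-32000325, plus strand: ttgtttaatgaagggatatATAAGCTtt

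None of the 4 genes with an 8mer passed the test, and their log2 fold changes were 0.40 for SMARCA2, 0.17 for SMARCD1, 0.00 for PBRM1 and -0.03 for BCL7A. At an unadjusted p under 0.05 SMARCA2 alone would have been counted, and voom called none of the 4. A further 5 genes (12.8%, against 7.02% of the tested genes) held a 7mer-m8 as their best match, namely SMARCE1, BRD7, SUZ12, RNF2 and CBX8. SUZ12 was called lower, not higher, and the other 4 were not called. For let-7a-5p no gene held an 8mer and 6 held a 7mer-m8 (15.4% against 6.73%), among them EZH2 and EZH1. A match of letters is a description of the sequence and says nothing of whether the microRNA binds there.

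The main comparison asked which SWI/SNF and Polycomb mRNAs differed between MIR21-KO and Ctrl. Of the PRC2 mRNAs, EZH2 fell by 29.1%, EED fell by 32.6%, SUZ12 fell by 35.5% and PHF19 fell by 35.8%. ACTL6A of the SWI/SNF ATPase module was also lower (0.74 times Ctrl), and SMARCD3, one of the interchangeable SWI/SNF core subunits, rose 2.67-fold. These were 6 of the 38 tested genes at an FDR under 0.01 (limma), which is 15.8% against 16.0% of all 16006 tested genes. All 38 are protein-coding, and in a fit restricted to protein-coding genes 7 of the 38 passed, against 27.8% of 11719. How the families as a whole compared with other genes thus depended on the genes set beside them. Over all 16006 genes, 1 of 38 was called higher against 7.66% of all genes, and 5 of 38 lower against 8.38%. The 2 groups of libraries did not overlap for 20 of the 38 (52.6%), against 48.1% of all genes, and the median log2 fold change was -0.03 against -0.02. In bulk RNA, fewer cells that express a gene and less of its RNA per cell cannot be told apart.

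**Figure D1:**
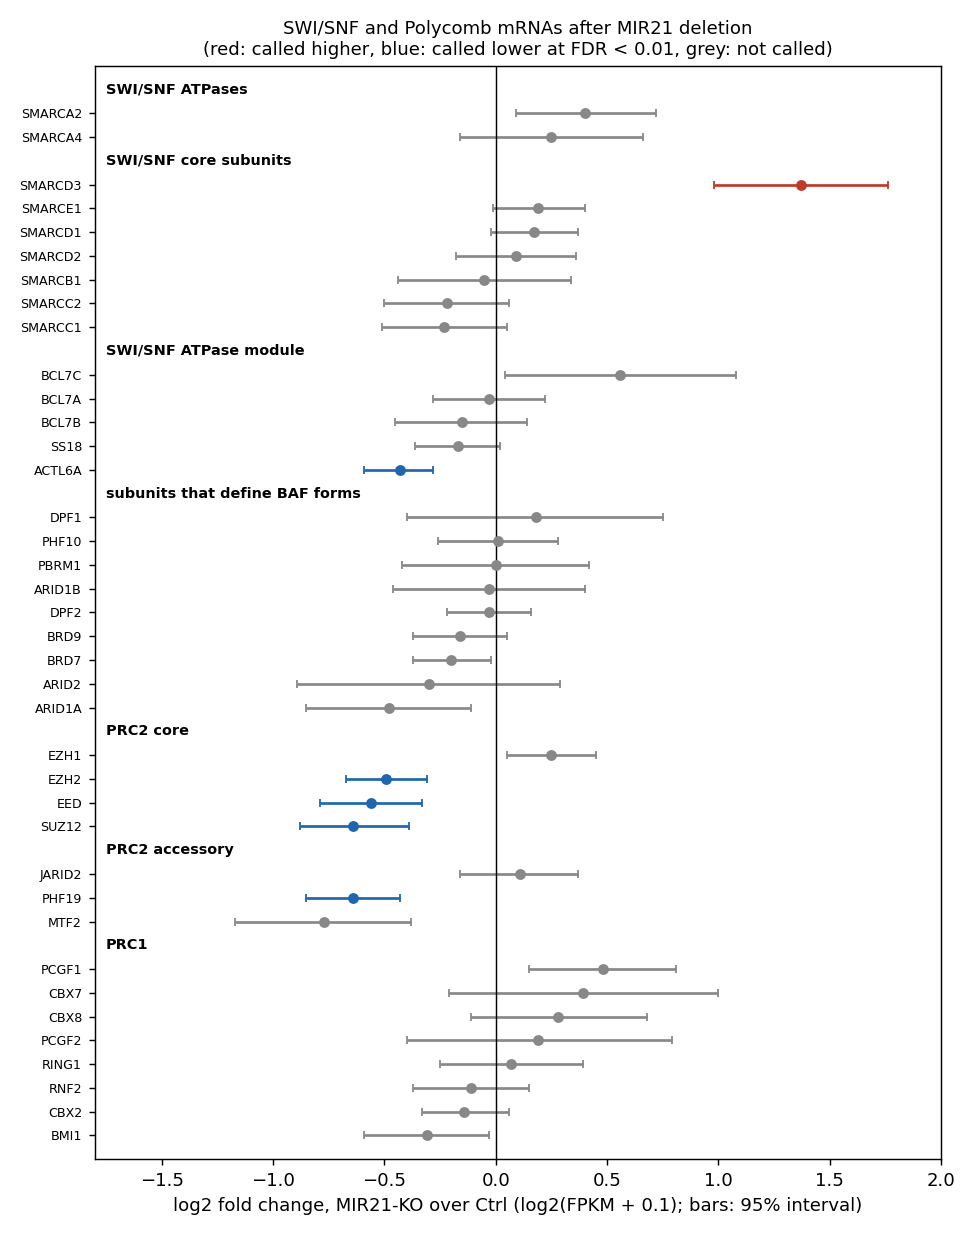
Log2 fold change of MIR21-KO over Ctrl (x axis, on log2(FPKM + 0.1)) of the 38 tested genes, grouped by role, with bars for the 95% interval of the limma fit. SMARCD3 stands at 1.37, 5 genes called lower (4 of them in PRC2) lie between -0.64 and -0.43, and the other 32 were not called.

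Within PRC2, 4 of 7 mRNAs were called lower and 0 higher, including 3 of the 4 core genes. Of all tested genes, 8.38% were called lower and 7.66% higher. The catalytic subunit EZH2 (ENSG00000106462, chr7:148807383-148884321, minus strand) stood at 14.3, 14.0 and 13.6 FPKM in Ctrl replicates 1 to 3 and at 10.2, 10.3 and 9.27 FPKM in MIR21-KO. The groups did not overlap, and the log2 fold change was -0.49 ± 0.075 (SE, n = 3 per group; limma FDR 0.00386). EED, which reads the mark that PRC2 places (ENSG00000074266, chr11:86244544-86278813, plus strand), had 5.55, 5.23 and 5.41 FPKM in Ctrl and 3.96, 3.53 and 3.42 FPKM in MIR21-KO. Every MIR21-KO library was below every Ctrl library, and the log2 fold change was -0.56 ± 0.098 at an FDR of 0.00636.

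SUZ12, a scaffold of the complex (ENSG00000178691, chr17:31937018-32001045, plus strand), had 20.5, 19.1 and 19.0 FPKM in Ctrl and 11.2, 12.3 and 14.3 FPKM in MIR21-KO. MIR21-KO replicate 3 was nearest to Ctrl without reaching it, and the log2 fold change was -0.64 ± 0.104 (limma FDR 0.00503). Its pseudogene SUZ12P1, which could share reads with it, averaged 3.58 FPKM in Ctrl and 3.46 FPKM in MIR21-KO and was not called. PHF19, an accessory subunit that recruits PRC2 to chromatin (ENSG00000119403, chr9:120855652-120894896, minus strand), had 17.3, 18.2 and 16.9 FPKM in Ctrl and 12.3, 11.2 and 10.2 FPKM in MIR21-KO. Here MIR21-KO replicate 3 was the farthest from Ctrl, and the log2 fold change was -0.64 ± 0.089 (FDR 0.00273).

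The other 3 PRC2 genes were not called. MTF2, an accessory subunit related to PHF19, had 4.47, 4.41 and 4.45 FPKM in Ctrl and 2.0, 2.70 and 3.09 FPKM in MIR21-KO, a log2 fold change of -0.77 that missed the threshold at an FDR of 0.0133. It passed in 4 of 17 other fits, among them voom (FDR 0.00295) and the fit without MIR21-KO replicate 3 (FDR 0.00523), with an FDR of up to 0.0502 in the rest. The low spread in Ctrl and the wide spread in MIR21-KO can be seen in the plot of PRC2 levels. EZH1, the less active alternative to EZH2, had 4.51, 4.27 and 4.39 FPKM in Ctrl and 5.41, 5.28 and 5.06 FPKM in MIR21-KO, a log2 fold change of 0.25 (FDR 0.0618) in the direction opposite to that of EZH2. JARID2, which helps to recruit PRC2, averaged 6.79 FPKM in Ctrl and 7.36 FPKM in MIR21-KO, and its groups overlapped.

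**Figure D2:**
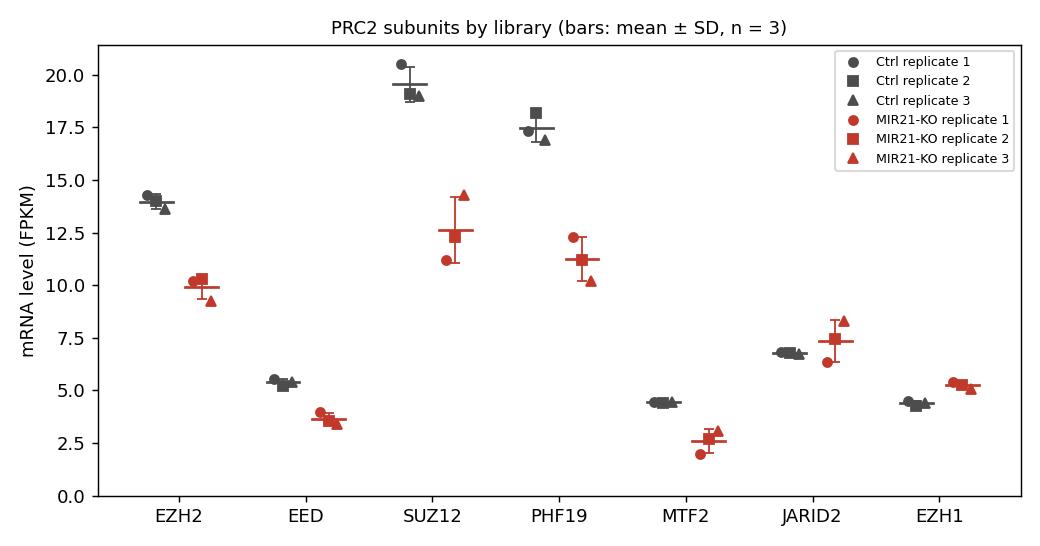
Level of the 7 PRC2 mRNAs in FPKM (y axis) in each library, Ctrl in grey and MIR21-KO in red, with the mean and SD of 3 libraries. EZH2, EED, SUZ12, PHF19 and MTF2 were lower in every MIR21-KO library, EZH1 was higher in every one, and JARID2 overlapped.

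The calls depended on some of the libraries. Without any single Ctrl library or without MIR21-KO replicate 2, none of the 5 lower calls passed an FDR of 0.01, while the log2 fold changes kept their sign: over 17 other fits they ran from -0.53 to -0.39 for EZH2, from -0.62 to -0.36 for EED, from -0.73 to -0.48 for SUZ12 and from -0.73 to -0.57 for PHF19. The highest FDR of these fits was 0.0283 for EZH2, 0.0285 for SUZ12, 0.0186 for PHF19 and 0.156 for EED. EED, the mRNA with the lowest GC content of the 39 (33.0%), lost its call when trends on GC content and gene length were taken out of every library. Without trend and robust fitting EZH2 (FDR 0.0105), SUZ12 (0.0128) and ACTL6A (0.0119) did not pass, and with no filter on low values SUZ12 (0.0113) and EED (0.013) did not. All 5 still passed when MIR21-KO replicate 1 or replicate 3 was left out. Over all genes, calls fell from 2568 to between 784 and 933 without a Ctrl library or MIR21-KO replicate 2, and came to 2189 when MIR21-KO replicate 1 was left out and to 3418 when replicate 3 was.

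**Figure D3:**
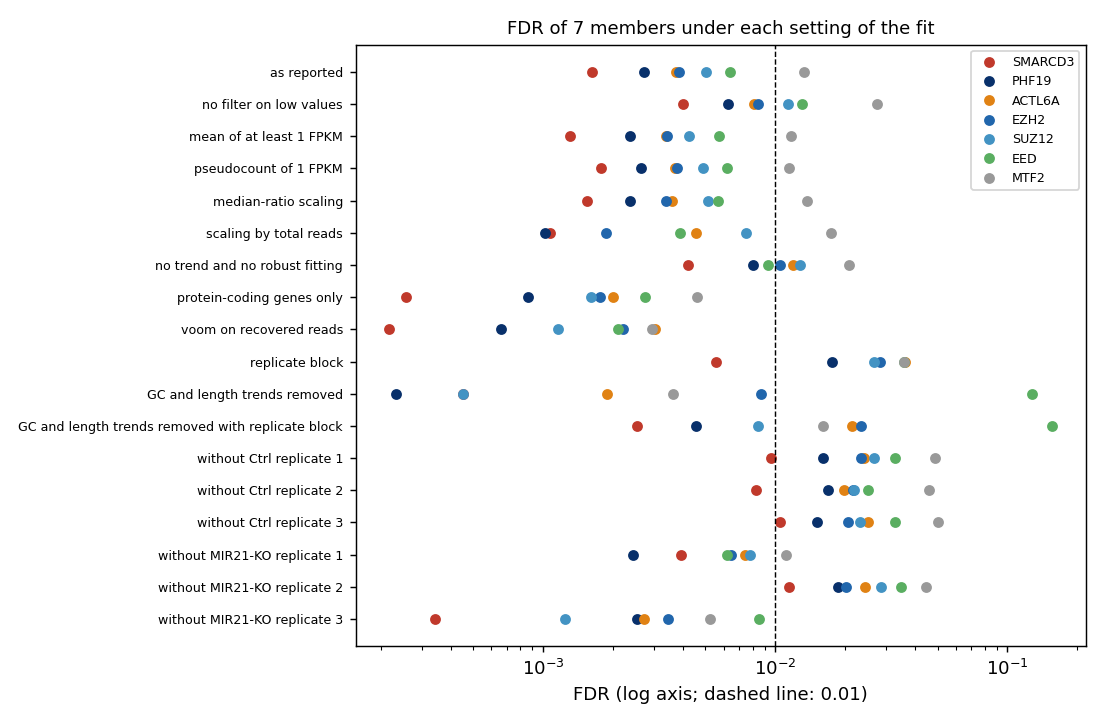
FDR (x axis, log scale) of 7 genes under each setting of the fit (rows), with a dashed line at 0.01. Leaving out any Ctrl library or MIR21-KO replicate 2 moved the 4 called PRC2 genes and ACTL6A to the right of the line, and EED stood at 0.128 with GC and length trends removed.

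Promoter windows from RefSeq (GRCh38.p14, 250 bases before to 50 bases after the start) were searched because several PRC2 genes moved together. The words searched on both strands were TTTCCCGC, TTTGGCGC, TTTCGCGC and TTTGCCGC, forms of the E2F consensus, which serves E2F factors that switch on genes for DNA replication. The search was chosen with the calls known. Of 33 genes with a window, 6 held a word (18.2%), against 6.77% of 9183 tested protein-coding genes. Among PRC2 genes it was 5 of 7, namely EZH1, EZH2, MTF2, PHF19 and SUZ12, and among the others BRD7 alone. The windows of the 3 called genes with a word and of EZH1 are printed with the word in capitals. EZH1 was not called (log2 fold change 0.25). MTF2, not called either (log2 fold change -0.77), held GCGGGAAA at position 5 relative to the start site and is not printed.
EZH2, chr7:148884242-148884541, minus strand: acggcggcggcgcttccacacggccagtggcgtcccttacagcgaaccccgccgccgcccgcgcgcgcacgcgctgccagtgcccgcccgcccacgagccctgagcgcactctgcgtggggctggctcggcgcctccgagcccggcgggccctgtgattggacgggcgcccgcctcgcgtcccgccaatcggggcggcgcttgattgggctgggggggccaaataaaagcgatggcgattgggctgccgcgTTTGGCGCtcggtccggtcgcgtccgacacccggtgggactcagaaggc
SUZ12, chr17:31936757-31937056, plus strand: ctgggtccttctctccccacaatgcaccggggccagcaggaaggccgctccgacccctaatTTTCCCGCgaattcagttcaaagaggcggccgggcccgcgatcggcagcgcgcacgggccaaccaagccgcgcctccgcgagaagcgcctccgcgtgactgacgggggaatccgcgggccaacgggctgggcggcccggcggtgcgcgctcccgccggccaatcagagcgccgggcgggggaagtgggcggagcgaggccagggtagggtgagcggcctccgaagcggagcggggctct
PHF19, chr9:120877139-120877438, minus strand: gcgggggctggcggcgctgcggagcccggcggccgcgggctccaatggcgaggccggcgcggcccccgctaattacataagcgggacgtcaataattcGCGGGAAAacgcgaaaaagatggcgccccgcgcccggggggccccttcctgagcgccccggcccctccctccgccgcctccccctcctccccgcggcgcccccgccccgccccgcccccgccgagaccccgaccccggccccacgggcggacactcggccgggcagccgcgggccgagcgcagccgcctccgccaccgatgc
EZH1, chr17:42744991-42745290, minus strand: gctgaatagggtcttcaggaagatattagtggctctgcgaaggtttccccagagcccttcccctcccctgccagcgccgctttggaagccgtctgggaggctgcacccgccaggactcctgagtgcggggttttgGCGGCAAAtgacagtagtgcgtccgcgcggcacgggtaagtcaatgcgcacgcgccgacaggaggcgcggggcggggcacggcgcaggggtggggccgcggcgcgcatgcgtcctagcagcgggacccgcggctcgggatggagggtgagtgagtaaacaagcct

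The word began at position 1 relative to the start site in EZH2, at -189 in SUZ12, at -152 in PHF19 and at -115 in EZH1. EED and JARID2 held none, and SMARCC1, SMARCC2, ARID2, ACTL6A, CBX2 and CBX8 had no window. Genes of cell division and DNA replication moved in these libraries as well. Of 12 proliferation markers, 9 were called lower and 0 higher, against 8.38% lower and 7.66% higher of all tested genes. Their median log2 fold change was -0.61, and their summed level was 882 to 902 FPKM in Ctrl and 608 to 618 FPKM in MIR21-KO. MCM2, a subunit of the replicative helicase, fell from 36.1 ± 1.93 to 16.5 ± 0.819 FPKM (SD, n = 3), a log2 fold change of -1.13 (limma FDR 0.000186). CCNB1, the mitotic cyclin B1, fell by 1.13 on the log2 scale (FDR 0.000203) and MCM3 by 0.73 (FDR 0.000935). Without any single Ctrl library or without MIR21-KO replicate 2, 3 or 4 of the 12 were called. Their part in the fall of the PRC2 mRNAs was not tested.

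Among the SWI/SNF ATPases, neither gene passed the test. SMARCA4 (BRG1; ENSG00000127616, chr19:10960825-11079426, plus strand) was low throughout, with 1.73, 1.25 and 1.58 FPKM in Ctrl and 1.73, 2.04 and 1.67 FPKM in MIR21-KO. The groups overlapped, and the log2 fold change was 0.25 ± 0.173 (limma FDR 0.316). SMARCA2 (BRM; ENSG00000080503, chr9:1980290-2193624, plus strand) had 3.62, 3.01 and 3.53 FPKM in Ctrl and 3.91, 4.67 and 4.96 FPKM in MIR21-KO. Every MIR21-KO library was above every Ctrl library, but the log2 fold change of 0.40 ± 0.132 did not pass (FDR 0.0573); only with GC and length trends removed did it, at an FDR of 0.00864 in a range of 0.00864 to 0.172 over 17 fits.

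Of the 7 core subunits, which build the base of the complex, SMARCD3 alone was called. SMARCD3 (BAF60C; ENSG00000082014, chr7:151238764-151277896, minus strand), the form known from heart and muscle, had 3.28, 3.45 and 2.98 FPKM in Ctrl and 9.83, 9.48 and 6.64 FPKM in MIR21-KO. MIR21-KO replicate 3 was the lowest of its group and still above every Ctrl library, and the log2 fold change was 1.37 ± 0.164 (limma FDR 0.00162). The call was lost without Ctrl replicate 3 and without MIR21-KO replicate 2 (FDR up to 0.0115), where the log2 fold change stayed within 1.17 to 1.55 over 17 fits. An antisense transcript that shares 574 exon bases with it, AC021097.1, averaged 2.87 FPKM in Ctrl and 5.24 FPKM in MIR21-KO, and whether reads were counted by strand is not given in the sources used here.

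The other core subunits lay between -0.23 (SMARCC1, a scaffold) and 0.19 (SMARCE1, a DNA-binding subunit) on the log2 scale. SMARCC2, the paralogue of SMARCC1, was at -0.22, and it shares exon bases with the strongly expressed MYL6 on the opposite strand. SMARCB1, a core subunit lost in rhabdoid tumours, averaged 12.8 FPKM in Ctrl and 12.5 FPKM in MIR21-KO. SMARCD1 and SMARCD2, the paralogues of SMARCD3, had log2 fold changes of 0.17 and 0.09 and were not called.

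In the ATPase module, ACTL6A (BAF53A; ENSG00000136518, chr3:179562880-179588408, plus strand), an actin-related subunit of proliferating cells, had 20.7, 19.9 and 20.4 FPKM in Ctrl and 14.5, 15.2 and 15.5 FPKM in MIR21-KO. The groups were well apart, and the log2 fold change was -0.43 ± 0.066 (limma FDR 0.00375). Without any 1 Ctrl library, or without MIR21-KO replicate 2, it did not pass (FDR 0.0197 to 0.025), nor without trend and robust fitting, and its highest FDR over 17 fits was 0.0361. Its neuronal paralogue ACTL6B was not detected, with 0 reads in every library. BCL7C, a small subunit, had 8.57, 9.98 and 10.1 FPKM in Ctrl and 18.9, 14.7 and 10.1 FPKM in MIR21-KO, and its log2 fold change was 0.56 (FDR 0.0944). The 3 MIR21-KO libraries differed widely for this gene, and without MIR21-KO replicate 3 it passed (FDR 0.00573, the lowest of 17 fits, with 0.231 the highest). MIR762HG, which shares 499 exon bases with it on the opposite strand, averaged 2.75 FPKM in Ctrl and 3.89 FPKM in MIR21-KO. SS18, BCL7B and BCL7A lay between -0.17 and -0.03.

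**Figure D4:**
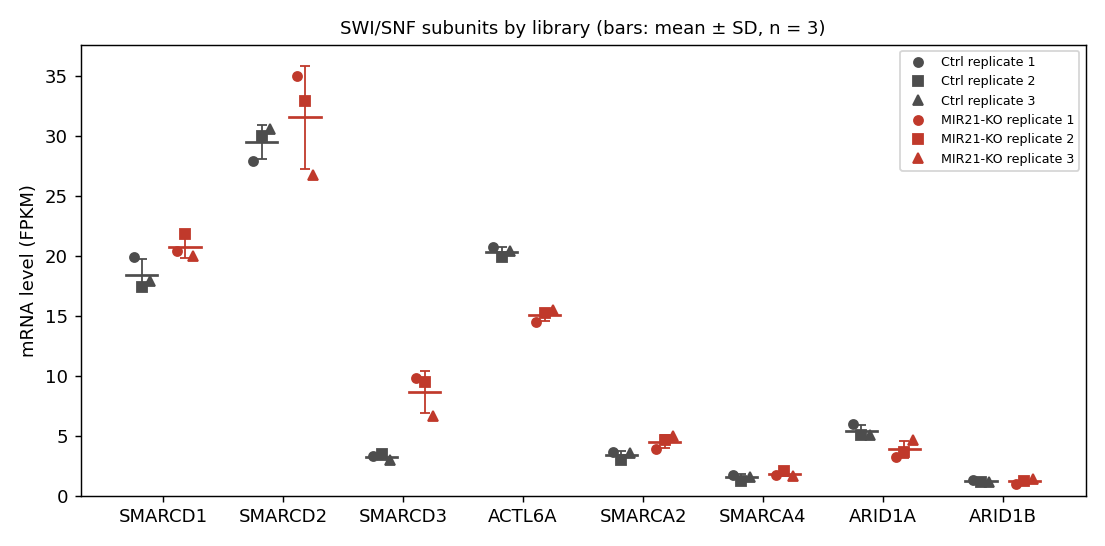
Level of 8 SWI/SNF mRNAs in FPKM (y axis) in each library, Ctrl in grey and MIR21-KO in red, with the mean and SD of 3 libraries. SMARCD3 was higher and ACTL6A lower in every MIR21-KO library, while SMARCD2, SMARCA4 and ARID1B overlapped.

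The subunits that define the BAF, PBAF and non-canonical forms included no call among 9 tested (limma), with 2 at an unadjusted p under 0.05 (6910 of all 16006 genes were) and 0 called by voom. ARID1A, the large subunit of canonical BAF and a frequent target of mutation in cancer, had 6.01, 5.07 and 5.04 FPKM in Ctrl and 3.22, 3.67 and 4.67 FPKM in MIR21-KO. The groups did not overlap, and the log2 fold change of -0.48 had an FDR of 0.0564 (0.00942 with GC and length trends removed, within a range of 0.00942 to 0.170 over 17 fits). ARID2 and PBRM1 of PBAF overlapped between groups, at log2 fold changes of -0.30 and 0.00. BRD7 of PBAF and BRD9 of the non-canonical form were slightly lower in each MIR21-KO library (-0.20 and -0.16) without being called. BRD7 shares 42.3% of its exon bases with ADCY7 on the opposite strand, which was called lower. The plant homeodomain subunits DPF1, DPF2 and PHF10, and ARID1B, the paralogue of ARID1A, overlapped between groups, with log2 fold changes from -0.03 to 0.18.

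None of the 8 PRC1 genes was called by limma or by voom, against 16.0% of all tested genes by limma and 24.1% by voom. An unadjusted limma p under 0.05 was reached by 2 of the 8, and by 6910 of all 16006 genes. PCGF1, which defines a variant PRC1, had 4.78, 4.17 and 4.62 FPKM in Ctrl and 7.06, 6.87 and 5.25 FPKM in MIR21-KO, a log2 fold change of 0.48 at an FDR of 0.0366. BMI1, a partner of the ubiquitin ligase in canonical PRC1, had 10.5, 10.5 and 10.0 FPKM in Ctrl and 7.20, 8.30 and 9.65 FPKM in MIR21-KO, a log2 fold change of -0.31 at an FDR of 0.0852. Without MIR21-KO replicate 3, PCGF1 (FDR 0.00463) and CBX8 (FDR 0.00827) passed, which with BCL7C and SMARCD3 brought the genes called higher to 4; without MIR21-KO replicate 2 the FDRs of PCGF1 and CBX8 were 0.131 and 0.490. Part of the exons of BMI1 (23.3%) also belongs to the read-through gene COMMD3-BMI1, which was listed at 0. PCGF2, the paralogue of BMI1, was at 0.19 and overlapped, and 32.7% of its exon bases are shared with CISD3 on the opposite strand. The ligases RING1 and RNF2 were at 0.07 and -0.11, and the chromodomain genes CBX2, CBX7 and CBX8 at -0.14, 0.39 and 0.28 on the log2 scale.

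By level in Ctrl the mRNAs of SMARCD2 (29.5 ± 1.42 FPKM), ACTL6A (20.3 ± 0.378) and SUZ12 (19.5 ± 0.826) were the highest of the 38, and CBX7 (0.793 ± 0.161), ARID1B (1.20 ± 0.0924) and SMARCA4 (1.52 ± 0.245) the lowest (SD, n = 3). ACTL6A and SUZ12 differed by about the spread of the latter. FPKM depends on the deposited gene length, which for ARID1B is 44058 bases against 10813 for its longest coding transcript. Counted on that transcript ARID1B stood at 4.88 FPKM in Ctrl. MIR21-KO libraries varied more than Ctrl libraries, with a median coefficient of variation of 13.4% against 6.38% over the 38 genes (15.0% against 8.95% over all tested genes). MIR21-KO replicate 3 was the lowest of its group for 22 of 38 genes and the highest for 16, that is for 57.9% and 42.1%, against 43.4% and 38.4% of all tested genes.

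Because paralogues replace one another in the complexes, the share of each in its group was computed by FPKM. There were 26 shares in 11 groups, and 10 shares in 5 groups did not overlap between Ctrl and MIR21-KO. Shares within a group are tied to each other: EZH2 changed by -10.7 percentage points and EZH1 by 10.7. The 10 shares are therefore not 10 separate shifts. For comparison, the levels of 48.1% of all tested genes did not overlap. No share could pass, since an exact permutation test of 3 against 3 libraries cannot give a two-sided p below 0.1. The smallest adjusted p over 26 shares was 0.26. EZH2 made up 76.1, 76.7 and 75.6% of EZH1 and EZH2 in Ctrl and 65.4, 66.0 and 64.7% in MIR21-KO. SMARCD3 made up 6.42, 6.79 and 5.79% of the SMARCD group in Ctrl and 15.1, 14.8 and 12.4% in MIR21-KO. BCL7C rose from a mean of 34.4% to 46.0% of the BCL7 group, ARID1A fell from 81.7% to 76.4% of ARID1A and ARID1B, and CBX2 from 46.0% to 38.7% of its group, each without overlap. The shares of SMARCA2 (69.1% and 71.2%, exact p = 0.4), SMARCC1 (57.3% and 57.2%, exact p = 1.0) and BMI1 (57.7% and 49.1%, exact p = 0.3) overlapped. Without MIR21-KO replicate 3, 19 shares did not overlap, but leaving out a library can only keep or raise that count.

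**Figure D5:**
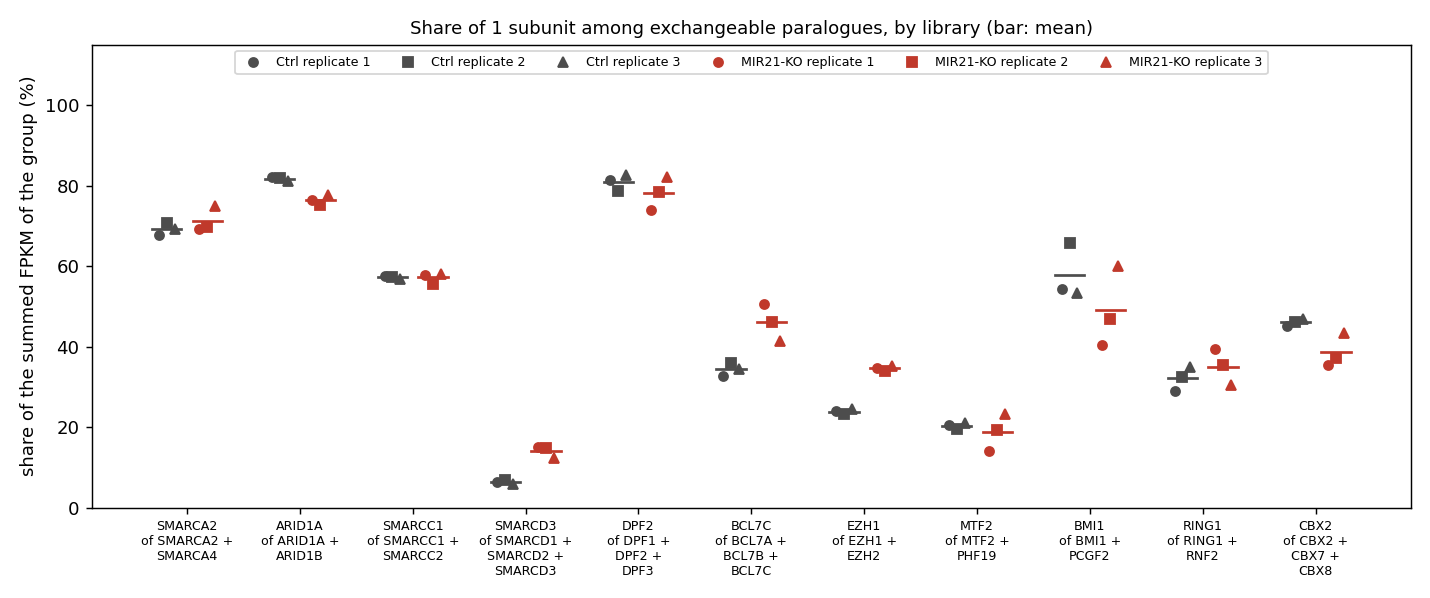
Share of 1 gene in the summed FPKM of its group of exchangeable paralogues (y axis, percent) for 11 groups, each shown by the share that differed most, with Ctrl in grey, MIR21-KO in red and a bar at the mean of 3 libraries. EZH1 rose from 23.9% to 34.6% and SMARCD3 from 6.33% to 14.1% with no overlap, while SMARCC1 stayed at 57.3% and 57.2%.

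Other genes of the same pathways were compared in the same fit. Of 30 tested partner subunits, 1 was called higher and 1 lower, 6.67% in all against 16.0% of all tested genes. In the fit restricted to protein-coding genes, the share called over all genes was 27.8%, so this comparison too depends on the genes set beside them. PHC1, a PRC1 subunit, had 6.54, 5.31 and 5.27 FPKM in Ctrl and 8.38, 8.44 and 8.91 FPKM in MIR21-KO, a log2 fold change of 0.59 ± 0.107 (limma FDR 0.00766). USP7, a deubiquitinase found with PRC1, had 22.0, 21.8 and 21.4 FPKM in Ctrl and 14.7, 15.7 and 16.3 FPKM in MIR21-KO, a log2 fold change of -0.48 ± 0.070 (FDR 0.00323). Without any single Ctrl library or without MIR21-KO replicate 2 the count fell to 0 or 1, without MIR21-KO replicate 1 it was 1, and without MIR21-KO replicate 3 it was 5. Of 9 tested enzymes that act against Polycomb marks none was called by limma or voom, and 3 had an unadjusted p under 0.05 (6910 of all 16006 genes did).

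Of 20 Polycomb target genes, 19 were found by name (NKX2-5 was not), and 8 were expressed enough to be tested. IRX3, a homeobox gene, had 3.40, 3.35 and 2.96 FPKM in Ctrl and 9.56, 9.34 and 6.78 FPKM in MIR21-KO, and was the only one called (log2 fold change 1.36 ± 0.152, limma FDR 0.00125). Of the 8, 2 had log2 fold changes above 0 and 6 below, with a median of -0.09, and voom called 2 of them. The groups did not overlap for 5 of the 8 (62.5%, against 48.1% of all tested genes), 2 of them higher and 3 lower in MIR21-KO. Among the lower ones, LHX2 averaged 1.52 FPKM in Ctrl and 0.689 FPKM in MIR21-KO (log2 fold change -1.04, limma FDR 0.0133). WT1 was at -0.54 on the log2 scale (FDR 0.0864). Of the 12 targets not tested, PAX6 was at 0.134 to 0.181 FPKM in Ctrl and at 0.547 to 0.696 FPKM in MIR21-KO, CDKN1C had 2 to 4 reads per library in Ctrl and 24 to 28 in MIR21-KO, and SOX17 had 4 to 9 and 10 to 20 reads. These 3 were below the filter, were named after their values were seen and were higher in every MIR21-KO library. Of the other untested targets, PAX2, MEIS1, NEUROG2 and TBX5 overlapped between the groups, and OLIG2, FOXF1, CDKN2A and CDKN2B had 0 reads in every library. The call of IRX3 held in each of 17 other fits.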

How the data were processed

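PolyA RNA-seq of 6 A549 libraries was analysed, 3 of Ctrl and 3 of MIR21-KO, grouped and numbered by their titles. The deposited table lists gene length and FPKM per library for 58174 genes. These FPKM depend on the library size and gene length that the authors used. The submitters' processing notes name the tools the authors used, cutadapt 1.14, HISAT2 2.1.0, SAMtools 1.5, featureCounts 1.5.3, edgeR 3.18.1 and hg38. The annotation release, the strand setting and the treatment of shared reads are not given in the sources used here. Columns with the authors' own comparison (a fold change on the log2 scale, a p-value, an FDR) were not used.

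FPKM times gene length was a whole multiple of 1 step per library for 100% of values (tolerance 0.01), so reads were recovered, 10631667 to 14345209 per library. No library was a copy of another (chi-square per degree of freedom at least 2.686 for every pair). The 16006 genes whose mean reached 0.5 FPKM entered a limma fit (version 3.58.1, R 4.3.3) of log2(FPKM + 0.1) (eBayes with trend and robust fitting, no covariate, two-sided), with Benjamini-Hochberg FDRs and calls at an FDR under 0.01. Fold changes on this scale understate those of low genes. The authors' unit is not a count, so count models were not used, and voom on recovered reads (mean of at least 10) was an alternative. Others were the filter, pseudocount, scaling, threshold, limma settings, gene types, trends on GC content and length (lowess span 0.3), a replicate block and leaving out each library.

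Shares of paralogues were compared by exact permutation tests with scipy 1.17.1. The test was run on simulated data with known changes. All calls of changed genes in those data had the right direction. False calls were almost all genes with few reads, so calls of such genes are less certain than the nominal FDR. Each named gene that was called had more reads than that. Whether the nominal FDR holds for the named genes, at their fold changes and with the wider spread of MIR21-KO libraries, was not tested. Sequences came from GENCODE 29 and RefSeq (GRCh38.p14). GENCODE identifiers matched 57836 genes, all 39 members had a 3' UTR and 33 a promoter window.

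The 39 genes, the lists and the tests were chosen with earlier results of these data known. Described in full were called genes and SMARCA4, SMARCA2, EZH2, EED and SUZ12, and in other lists at most the 3 called genes with the smallest p; the remaining genes were named after their values were seen. GC and length removal with the block, and shares by longest coding transcript, were added after the data were seen.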

Additional observations from a re-analysis of the deposited data

How the results depend on the processing

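No called gene of the 2 families changed sign in the 17 other fits, and 10 of the 38 tested, none of them called and all within 0.19 of 0 on the log2 scale, did so in at least 1 (SMARCB1, SMARCD2, ARID1B, PBRM1, DPF1, PHF10, BCL7A, PCGF2, RING1 and RNF2). The count of genes called lower, 5, was 3 with no filter on low values, 2 without trend and robust fitting, 0 with the replicate block, 2 with GC and length trends removed together with that block, and 0 to 6 when 1 library was left out. The count called higher, 1, was 2 at an FDR under 0.05 and with GC and length trends removed, and 0 to 4 with 1 library left out. Partner subunits, 2 called, came to 1 with no filter or with scaling by total reads, 10 at an FDR under 0.05, 0 without trend and robust fitting, 0 with the replicate block, 5 with GC and length trends removed, 1 with that and the block, and 0 to 5 with 1 library left out. Opposing enzymes, 0 called, came to 1 with scaling by total reads, at an FDR under 0.05 and with GC and length trends removed. Polycomb target genes, 1 called, came to 2 with no filter, with scaling by total reads, at an FDR under 0.05, with protein-coding genes only and with GC and length trends removed, and to 4 by voom, whose filter on reads let in targets not tested otherwise. Proliferation markers, 9 called, came to 2 with the replicate block and to 3 to 11 with 1 library left out. Shares without overlap, 10, came to 10 to 19 with 1 library left out, which can only keep or raise that count.

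Replicate numbers did not pair the libraries: deviations of same-numbered Ctrl and MIR21-KO libraries correlated at -0.171, -0.018 and -0.017, and the labels name no shared day or batch. With the replicate block, calls over all genes fell from 2568 to 651. Leaving out MIR21-KO replicate 3 raised the calls over all genes to 3418 and leaving out any other library lowered them; the cause was not tested. With 3 libraries a group, shares could not pass an exact test, and DPF3 was too low to be tested.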
